A study of Mus musculus with 48 samples.

Results

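The features described here are 35 of the 55291 annotated features counted in nascent RNA of mouse embryonic stem cells, selected because their counts were lower in both Smarce1-MD clones than in both control clones at nearly every state sampled. They were chosen by the measured values themselves. CPM, a feature's counts scaled to a library total common to all libraries, was averaged over the 2 libraries of each clone and state. A feature was kept when the lower of the control clones exceeded the higher of the Smarce1-MD clones by 1.5-fold or more, and the control mean was 5 CPM or more, at each of 5 states (asynchronous culture and 0, 45, 180 and 240 min after release from mitotic arrest). Left out by name were Ank1, Nkx6-3, Mras, Hoxc13, Ccl17 and Tbx3, microRNA features and features with an opposite-strand (os) name, and 5 features were kept out by this alone. In all, 12339 features stood at 5 CPM or more in the control at all 5 states, and 144 features met the mirror-image rule, higher in the Smarce1-MD clones. The state at 90 min was not used in the choice, so it holds the test of MD against control for these members. Their differences at the other 5 states are a description.

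SMARCE1 is an HMG-box subunit of the SWI/SNF (BAF) complexes, which use ATP to slide or evict nucleosomes and so open promoters and enhancers to transcription factors. Transcription is largely shut down while chromosomes are condensed in mitosis and resumes as cells exit. Feeding cells 5-ethynyluridine (EU), a uridine analogue that can be captured by click chemistry, marks the RNA made during the pulse.

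The cells called MD were clones MD09 and MD30 of Smarce1-MD, a SMARCE1 form built to be degraded during mitosis. Their counterpart was Smarce1-MD(R42A), called R42A and taken as the control, clones A04 and A10, so every group carried a modified SMARCE1 and no unmodified line was among the libraries. All were embryonic stem cells of strain 129S5/SvEvBrd grown with LIF. They were sampled growing asynchronously, or arrested with the microtubule inhibitor nocodazole, shaken off and taken 0, 45, 90, 180 or 240 min after its washout, with 2 libraries per clone and state and 48 libraries in all. Each line is 1 clone, so a difference between 2 clones and 2 others need not come from the genotype. The spread behind the p-values of MD against R42A is that between the clones of a group, pooled over all states. A clone's values at different states were taken as independent there, so a lasting difference between clones can make p too small. For changes between states the spread is what remains after a term for the clone. No source used here says if a clone's 2 libraries were grown apart.

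Library totals ran from 630119 to 3885219 assigned counts, lowest in MD at 90 min (630119 to 1518400) and at 0 min in both genotypes (762327 to 1022255). The MD libraries at 90 min stood apart. Mitochondrially encoded features took 0.529 to 4.31% of their counts, against 0.183 to 0.217% in R42A at 90 min, and the feature CT010467.2 held up to 148248 counts in one of them. Their 2 replicate numbers also differed in the same way in both clones (r = 0.82 across features between the library differences of MD09 and MD30). Between A04 and A10 at 90 min this r was 0.31. A shift that both clones share is not part of the spread between clones, so it too can make p at 90 min too small. Counts credited to Smarce1, a gene the design does not delete, were compared by edgeR's quasi-likelihood test as the log2 difference, MD minus R42A. Here and for every log2 difference below, ± is the standard error of the fit. Smarce1 was lower in MD at 45 min (-0.88 ± 0.18, adjusted p = 0.000533), 180 min (-0.67 ± 0.18, adjusted p = 0.0102) and 240 min (-0.72 ± 0.19, adjusted p = 0.00957). It did not pass an adjusted p of 0.05 in asynchronous cells (-0.55 ± 0.19, adjusted p = 0.0509), at 0 min (-0.48 ± 0.22, adjusted p = 0.22) or at 90 min (-0.18 ± 0.20, adjusted p = 0.513). Embryonic stem cell markers summed to 380 to 1407 CPM in MD and 755 to 1353 CPM in R42A. Esrrb made up most of these sums, with a median of 694 CPM in MD and 949 CPM in R42A. At 90 min its mean was 320 CPM in MD and 749 CPM in R42A. Among the other markers, Pou5f1 had a median of 41.1 CPM in MD and 41.3 CPM in R42A, and Sox2 was at 0 in every library. The medians of Klf4, Zfp42, Dppa5a and Utf1 were lower in MD, and that of Nanog was higher. Kcnq1 had a median of 3938 CPM in MD and 4643 CPM in R42A, while its antisense partner Kcnq1ot1 had 52.0 CPM in MD and 56.0 CPM in R42A. Xist had a median of 1159 CPM in MD and 1682 CPM in R42A, and its antisense partner Tsix 13.9 and 11.8 CPM. The medians of Actb were 83.7 CPM in MD and 78.0 CPM in R42A, and those of Eef1a1 73.5 and 62.0 CPM. Counts credited to a feature thus need not be RNA of its own strand, and gene names below stand for the features as counted. The strand setting of the counting is not given in the sources used here.

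Among the 35 members, 20 bore assigned gene names and 15 provisional ones (Gm numbers or Rik names). The annotation made 20 of them protein-coding, 7 lincRNA, 4 antisense, 1 sense-overlapping and 1 a long noncoding RNA, and for 2 (Gm49857 and Gm50138) no annotation was used. The 33 placed members lay on 14 chromosomes (mm10, GENCODE M21 gene models, with Gm9902 from RefSeq). Of 32 members in GENCODE M21, 12 overlapped a gene on the opposite strand with 1 CPM or more. Gm15239 lies within Prps2 on the other strand and both are members, so counts credited to one may be RNA of the other. Others were Ddx39 with Adgre5, Bcat2 with 0610005C13Rik, Gm31323 with Vps26c, Gm31224 with Kifc3, Gm10629 with Smpd3 and Lrp2bp with Ankrd37. No member belonged to the 7 lists of SWI/SNF subunits, pluripotency, 2-cell, HoxC, imprinted or Y-linked genes.

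Chromosome 8 held 11 of the 33 placed members (33.3%), Sox1ot, Sfrp1, Triml1, Lrp2bp, Ddx39, Rtbdn, Gm31224, Gm20163, Lrrc29, Gm10629 and Chst5. By comparison, 705 of the 12026 placed features at 5 CPM or more in R42A lay there (5.86%). Over 852 features of chromosome 8 the median log2 difference, MD minus R42A, was -0.38 in asynchronous cells, -0.33 at 0 min, -0.30 at 45 min, -0.56 at 90 min, -0.32 at 180 min and -0.38 at 240 min. Over all 15885 features at 5 CPM or more the median was 0.06, 0.06, 0.08, -0.21, 0.06 and 0.02 at those states. A whole chromosome was thus lower in MD relative to the rest, and in asynchronous cells its median log2 level relative to all features, set against the mean of the 4 clones, was -0.21 in MD09, -0.22 in MD30, 0.28 in A04 and 0.16 in A10. Chromosome 11 was shifted the other way, by 0.52 in asynchronous cells and 0.21 at 90 min. The number of chromosomes per cell was not measured, and its part in the members' values was not tested.

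**Figure D1:**
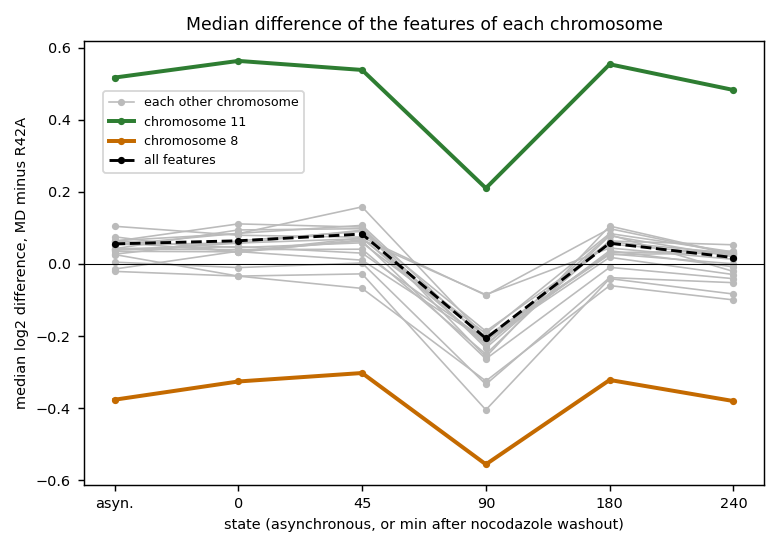
Median log2 difference in CPM, MD minus R42A (vertical axis), of the features of each chromosome at each state (horizontal axis: asynchronous, or min after nocodazole washout), with a pseudocount of 0.5. Chromosome 8 lies below all other chromosomes at every state (-0.38 in asynchronous cells, -0.56 at 90 min) and chromosome 11 above all other autosomes (0.52 and 0.21), while the dashed line of all features dips to -0.21 at 90 min.

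Against their own chromosome, 10 of the 11 members on chromosome 8 stood lower at 90 min than the chromosome's median difference, by -0.50 (Lrp2bp) to -1.85 (Triml1) log2 units, and Rtbdn was level with it (-0.0042). Zbtb4 was the single member on chromosome 11, where features as a whole were higher in MD, and its log2 difference less that chromosome's median was -3.76 at 90 min.

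The 250 bases before the annotated start were taken for the 19 members with a RefSeq promoter (GRCm38.p6, the same assembly as mm10). They are shown for 3 members that the results below turn on, Zbtb4 with the largest difference at 90 min, Apba1 with the most counts among members with assigned names, and Triml1 with a large difference at 90 min and few counts. Each runs 5′ to 3′ on the gene's own strand, with capitals marking every GC box, CCAAT box, AP-1 site or TATA box, on either strand. Zbtb4 is at chr11:69765662-69765911 (plus strand), Apba1 at chr19:23758626-23758875 (plus strand) and Triml1 at chr8:43141487-43141736 (minus strand).
Zbtb4: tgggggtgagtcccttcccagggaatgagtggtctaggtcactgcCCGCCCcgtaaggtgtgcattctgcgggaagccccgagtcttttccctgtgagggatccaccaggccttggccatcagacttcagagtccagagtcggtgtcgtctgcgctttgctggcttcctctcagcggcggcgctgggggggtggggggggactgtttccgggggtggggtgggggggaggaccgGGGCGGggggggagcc
Apba1: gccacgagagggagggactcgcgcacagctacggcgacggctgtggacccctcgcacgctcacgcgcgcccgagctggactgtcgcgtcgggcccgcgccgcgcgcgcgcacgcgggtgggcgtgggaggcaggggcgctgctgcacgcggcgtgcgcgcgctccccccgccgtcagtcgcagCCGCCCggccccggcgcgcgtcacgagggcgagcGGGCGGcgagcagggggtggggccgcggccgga
Triml1: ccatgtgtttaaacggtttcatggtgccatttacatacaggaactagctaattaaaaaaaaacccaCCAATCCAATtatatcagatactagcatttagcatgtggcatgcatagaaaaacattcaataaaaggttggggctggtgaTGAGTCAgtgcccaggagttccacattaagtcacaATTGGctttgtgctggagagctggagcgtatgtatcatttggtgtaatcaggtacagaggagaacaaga
The stretch before Apba1 is 81.6% G and C with 49 CpG and that before Zbtb4 67.6% with 13 CpG, while that before Triml1 is 40.4% with 2 CpG. Members thus range from CpG-rich to CpG-poor starts, and their median of 51.6% G and C was close to the 52.0% of all 27025 promoters. A GC box, searched on both strands as GGGCGG, was found before 6 of the 19 (31.6%, against 32.9% of all promoters) and a CCAAT box, by those 5 letters, before 6 (31.6%, against 34.5%). A TATA box (TATAAA) was found before 3 (15.8%, against 12.97% of all) and an AP-1 site, searched as TGACTCA, before 2, Triml1 and 4930471E19Rik (10.5%, against 4.43%). The E-box CACGTG, searched in the same way, was before none of the 19 and before 6.05% of all promoters. These are matches in a window and no test was made of them.

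Within the rule's 5 states all 35 members were lower in MD by construction, and the size of the difference varied among them. The mean CPM ratio, R42A over MD, ran from 1.78 for Rtbdn to 5.19 for 4930471E19Rik. From the fit across all features, the members' median log2 difference was -1.49 in asynchronous cells, -1.56 at 0 min, -1.29 at 45 min, -1.41 at 180 min and -1.46 at 240 min. Just inside the threshold lay Triml1, whose lower R42A clone was 1.503 times the higher MD clone in asynchronous cells, Gm31224 (1.503 at 0 min) and Sox1ot (1.51 at 45 min). Just outside lay Triml2, the neighbour of Triml1 (1.47 in asynchronous cells), Gm15587 (1.47 at 45 min) and 0610040J01Rik (1.47 at 240 min). In single libraries, all 4 MD values lay below all 4 R42A values for 32 members in asynchronous cells, 34 at 0 min, 33 at 45 min, 34 at 180 min and 35 at 240 min. Of all features at 5 CPM or more in R42A at the state, the same held for 10.2% in asynchronous cells, 7.12% at 0 min, 8.83% at 45 min, 11% at 180 min and 11.1% at 240 min. The rule chose the members on these states, so nothing is read from the gap. The exceptions were 4930471E19Rik, St8sia2 and Triml1 in asynchronous cells, Pgk1 at 0 min, St8sia2 and Triml1 at 45 min and St8sia2 at 180 min.

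**Figure D2:**
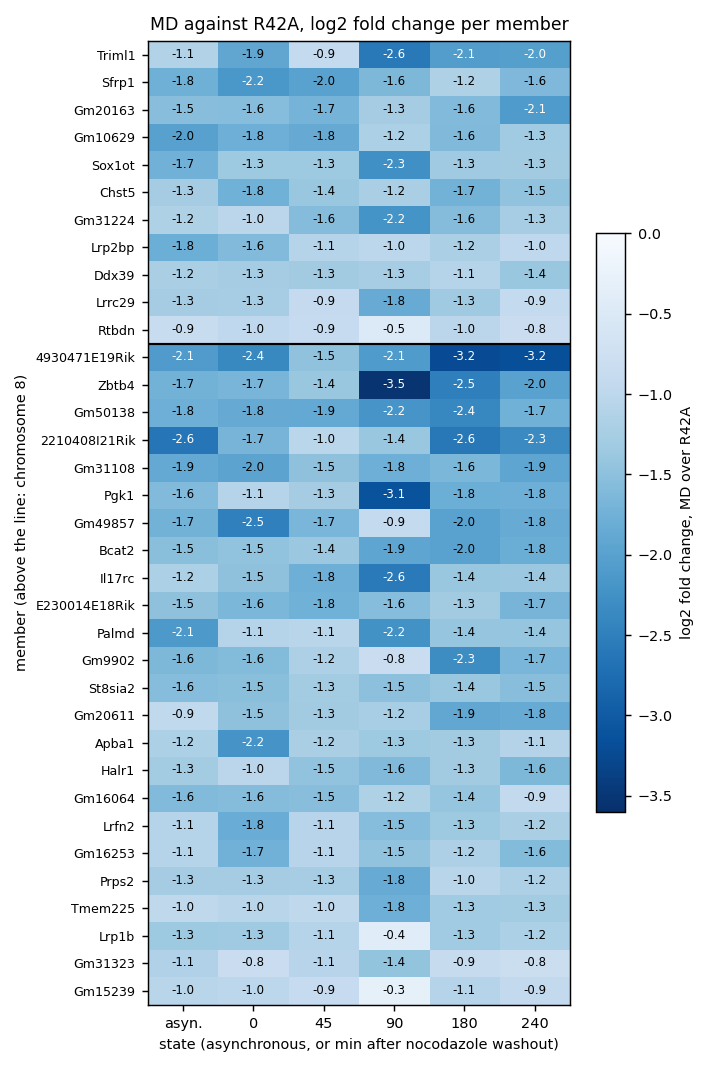
Log2 fold change, MD over R42A, of each member (rows, those on chromosome 8 above the line) at each state (columns, asynchronous or min after washout). All cells are below 0, as the choice of members fixes at 5 of the states; at 90 min, which was not used, the values spread from -0.3 (Gm15239) to -3.5 (Zbtb4).

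At 90 min, the state held apart, 33 of the 35 members were lower in MD (94.3%) and none was higher by edgeR's quasi-likelihood test with adjusted p under 0.05, here named a call. Of all 23874 features tested, 22.1% were lower and 15.6% higher (5267 lower, and 2928 to 3390 without clone MD09, clone MD30 or replicate 1), and of the 12168 features at the rule's level in R42A 30.8% were lower. On chromosome 8, 33.7% of 1222 features were lower. The members' median log2 difference was -1.55, with a range of -3.53 to -0.30, and that of all features -0.13. Since the same clones chose the members, the count shows that their difference was also there at 90 min, not that it arose from the genotype. A lower count can come from less RNA per cell or from fewer cells that make it, which cannot be told apart in pooled cells. The count was 33 when CT010467.2 and all mitochondrial features were dropped. It was also 33 without the MD libraries of replicate 1 at 90 min, where Gm10629 lost its call (-0.93, adjusted p = 0.141) and Gm15239 gained one (-1.24, adjusted p = 1.81e-06). Left without all libraries of replicate 2, the test called 24 members, the fewest under any alternative run.

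The rule itself, applied at 90 min, was met by 30 of the 35. This compares with 21.2% of the 14921 features at 5 CPM or more in R42A at 90 min and 33.8% of the 795 on chromosome 8. The 5 members that missed it were Lrp1b, Rtbdn, Gm9902, Gm15239 and Gm49857, whose lower R42A clone was 1.17, 1.25, 1.27, 1.28 and 1.297 times the higher MD clone. In single libraries the 4 MD values lay below the 4 R42A values for 29 members, against 22.4% of all features at 5 CPM or more in R42A at 90 min. The 6 that overlapped were Gm15239, Lrp1b, Lrp2bp, Rtbdn, Sfrp1 and St8sia2.

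**Figure D3:**
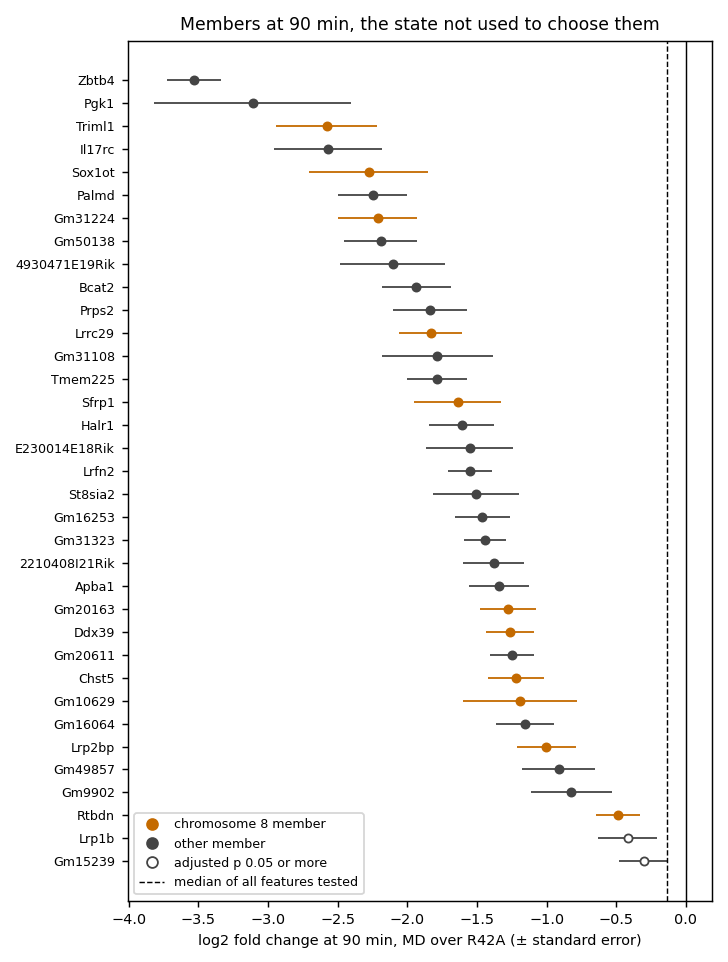
Log2 fold change at 90 min, MD over R42A, of the 35 members with its standard error (horizontal axis), ordered from the most negative at the top. Filled points passed an adjusted p of 0.05; the 2 open points, Lrp1b and Gm15239, did not, and the dashed line marks the median of all features tested (-0.13).

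Of the members that act on chromatin or RNA, Zbtb4 encodes a zinc finger protein that binds methylated DNA and represses transcription (chromosome 11, 69765912 to 69784023, plus strand). Zbtb4 stood in MD09 and MD30 at 33.4 and 25.4 in asynchronous culture, 20.4 and 12.6 at 0 min, 26.6 and 21.3 at 45 min, 16.5 and 22.9 at 90 min, 43.8 and 43.8 at 180 min, and 39.6 and 36.1 at 240 min (CPM). In R42A, Zbtb4 had in A04 and A10 79.8 and 100.4 in asynchronous culture, 54.6 and 44.8 at 0 min, 54.9 and 54.4 at 45 min, 245 and 223 at 90 min, 228 and 237 at 180 min, and 146 and 149 at 240 min (CPM). The groups did not overlap at any state, and the mean was highest at 90 min in R42A and at 180 min in MD. At 90 min, Zbtb4 had 17.1, 15.9, 20.6 and 25.2 CPM in the 4 MD libraries, against 212, 279, 179 and 268 CPM in the 4 R42A libraries (here and below MD09, then MD30, and A04, then A10, with replicate 1 before 2). This was the largest difference of all members (-3.53 ± 0.19, adjusted p = 1.23e-14). Of its 17 neighbours within 100 kb, 1 was lower in MD and 5 were higher. Cd68 was lower (-0.90 ± 0.22, adjusted p = 0.00128), while Polr2a (0.58 ± 0.17, adjusted p = 0.00712) and Tnfsf13os (1.16 ± 0.19, adjusted p = 1.78e-05) were higher.

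Ddx39, a DEAD-box RNA helicase of mRNA export, lies on chromosome 8 (83715177 to 83726892, plus strand). Ddx39 stood in MD09 and MD30 at 111 and 166 in asynchronous culture, 122 and 137 at 0 min, 93 and 111 at 45 min, 91 and 116 at 90 min, 118 and 121 at 180 min, and 127 and 111 at 240 min (CPM). In R42A, Ddx39 had in A04 and A10 308 and 290.3 in asynchronous culture, 304 and 299 at 0 min, 244 and 218 at 45 min, 251 and 258 at 90 min, 229.5 and 249 at 180 min, and 309 and 303 at 240 min (CPM). Both MD clones lay below both R42A clones at every state, with little movement through mitotic exit in either genotype. At 90 min the log2 difference was -1.26 ± 0.17 (adjusted p = 6.48e-07). Adgre5, which overlaps it on the opposite strand, was lower in MD at 90 min as well (-0.96 ± 0.17, adjusted p = 2.51e-05). With the strand setting unknown, counts credited to one may be RNA of the other.

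Among enzymes of metabolism, Bcat2, the mitochondrial aminotransferase of branched-chain amino acids, lies on chromosome 7 (45570153 to 45589711, plus strand). Bcat2 stood in MD09 and MD30 at 71.8 and 80.6 in asynchronous culture, 21.5 and 29.5 at 0 min, 19.5 and 19.8 at 45 min, 12.2 and 22.9 at 90 min, 41.5 and 46.3 at 180 min, and 47.2 and 62.6 at 240 min (CPM). In R42A, Bcat2 had in A04 and A10 229 and 174 in asynchronous culture, 76.7 and 57.1 at 0 min, 57.7 and 39.2 at 45 min, 64.5 and 67.5 at 90 min, 177 and 155 at 180 min, and 219 and 162 at 240 min (CPM). In both genotypes the level was highest in asynchronous cells and low at 0, 45 and 90 min. At 90 min Bcat2 differed by -1.94 ± 0.25 (adjusted p = 2.82e-07), and without replicate 2 the call was lost (-1.26, adjusted p = 0.0625). Pgk1, a kinase of glycolysis on chromosome X with near-identical processed copies that can split its reads, had 1.32, 1.52, 0 and 3.15 CPM in the 4 MD libraries, against 13.9, 13, 13.1 and 16.5 CPM in the 4 R42A libraries at 90 min. With 0 to 2 counts per MD library, its difference (-3.11 ± 0.71, adjusted p = 0.00189) rests on few reads, and it lost the call when either R42A clone was left out (-3.09, adjusted p = 0.0807 without A04, and -3.03, adjusted p = 0.0898 without A10). Prps2 makes phosphoribosyl pyrophosphate for nucleotide synthesis and had 8.63 ± 4.61 CPM in MD and 30.1 ± 5.64 CPM in R42A at 90 min (SD, n = 2 clones each; -1.84 ± 0.27, adjusted p = 1.61e-06). Gm15239, the antisense feature inside Prps2, was not called (-0.30 ± 0.18, adjusted p = 0.177). It had 222, 85.8, 190.4 and 88.1 CPM in the 4 MD libraries, against 199.8, 194, 198 and 205 CPM in the 4 R42A libraries at 90 min. The replicate 1 libraries of MD (1 value from each clone, 222 and 190) reached the R42A levels and those of replicate 2 did not. Without the MD libraries of replicate 1 at 90 min it was lower (-1.24, adjusted p = 1.81e-06), and without all replicate 2 libraries the sign turned (0.42, adjusted p = 0.0766).

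Several members encode proteins of synapses and of the cell surface. Apba1 encodes Mint1, an adaptor of synaptic vesicles that binds the amyloid precursor protein (chromosome 19, 23758887 to 23949596, plus strand). Apba1 stood in MD09 and MD30 at 285 and 457 in asynchronous culture, 103 and 153 at 0 min, 91.5 and 136 at 45 min, 132 and 193 at 90 min, 246 and 348 at 180 min, and 292 and 319 at 240 min (CPM). In R42A, Apba1 had in A04 and A10 799 and 776 in asynchronous culture, 623 and 495 at 0 min, 258 and 237 at 45 min, 427 and 410.3 at 90 min, 743 and 641 at 180 min, and 651 and 648 at 240 min (CPM). The gap was widest at 0 min. At 90 min the 2 groups of libraries did not overlap, with 142, 122, 206 and 179 CPM in the 4 MD libraries, against 408, 445, 377 and 444 CPM in the 4 R42A libraries (-1.34 ± 0.21, adjusted p = 1.58e-05).

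Lrfn2 is a synaptic adhesion protein with leucine-rich repeats (chromosome 17, 48932379 to 49097588, plus strand). Lrfn2 stood in MD09 and MD30 at 70.5 and 82.9 in asynchronous culture, 73.3 and 62.4 at 0 min, 71.5 and 64.4 at 45 min, 48.9 and 72.7 at 90 min, 95.6 and 104 at 180 min, and 101 and 102 at 240 min (CPM). In R42A, Lrfn2 had in A04 and A10 145 and 157 in asynchronous culture, 232 and 227 at 0 min, 122 and 145 at 45 min, 186 and 178 at 90 min, 246 and 236 at 180 min, and 238 and 227 at 240 min (CPM). The clones did not overlap at any state. The log2 difference of Lrfn2 at 90 min was -1.55 ± 0.16 (adjusted p = 3.38e-09).

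Lrp1b, a large endocytic receptor of the LDL receptor family, lies on chromosome 2 (40595246 to 42653624, minus strand). Lrp1b stood in MD09 and MD30 at 128 and 234 in asynchronous culture, 202 and 222 at 0 min, 79.9 and 81.5 at 45 min, 169 and 202 at 90 min, 54.4 and 69.6 at 180 min, and 48.2 and 64.8 at 240 min (CPM). In R42A, Lrp1b had in A04 and A10 445 and 390.2 in asynchronous culture, 487 and 514 at 0 min, 157 and 162 at 45 min, 235 and 274 at 90 min, 159 and 130.5 at 180 min, and 145 and 106 at 240 min (CPM). It was the assigned gene that did not hold at 90 min (-0.42 ± 0.21, adjusted p = 0.124). Its libraries then overlapped, with 129.7, 209, 235 and 168 CPM in the 4 MD libraries, against 264, 206, 354 and 193 CPM in the 4 R42A libraries. Without clone MD09 it was lower in MD (-0.64, adjusted p = 0.0342).

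Of the signalling genes, Sfrp1 encodes a secreted antagonist of Wnt (chromosome 8, 23411502 to 23449632, plus strand). Sfrp1 stood in MD09 and MD30 at 3.65 and 2.84 in asynchronous culture, 11.7 and 8.76 at 0 min, 5.83 and 4.98 at 45 min, 2.99 and 7.09 at 90 min, 2.69 and 3.34 at 180 min, and 2.55 and 2.94 at 240 min (CPM). In R42A, Sfrp1 had in A04 and A10 11.1 and 9.24 in asynchronous culture, 44.5 and 44.6 at 0 min, 15.9 and 22.3 at 45 min, 14.9 and 13.9 at 90 min, 6.21 and 6.8 at 180 min, and 9.4 and 7.26 at 240 min (CPM). Both genotypes were highest at 0 min. At 90 min, Sfrp1 had 0.659, 5.32, 1.59 and 12.6 CPM in the 4 MD libraries, against 17.3, 12.4, 16.1 and 11.7 CPM in the 4 R42A libraries, from 1 to 8 counts per MD library (-1.64 ± 0.31, adjusted p = 9.43e-05). One MD library, MD30 replicate 2, reached the R42A range, and without replicate 1 the call was lost (-0.58, adjusted p = 0.323). Il17rc, a subunit of the interleukin 17 receptor on chromosome 6, had 69.7 ± 2.67 CPM in MD and 218 ± 83.3 CPM in R42A at 45 min and 3.97 ± 1.07 CPM in MD and 24.1 ± 4.96 CPM in R42A at 90 min (SD, n = 2 clones each; 90 min difference -2.57 ± 0.39, adjusted p = 5.46e-06). Its MD libraries at 90 min held 1 to 5 counts each. Of the 13 neighbours of Il17rc within 100 kb, 10 were lower in MD at 90 min and none was higher, and the 3 with the smallest adjusted p were Rpusd3 (-3.56 ± 0.45, adjusted p = 1.86e-07), Prrt3 (-2.22 ± 0.27, adjusted p = 6.86e-08) and Ttll3 (-1.86 ± 0.21, adjusted p = 2.23e-08).

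The glycan enzymes were Chst5 and St8sia2. Chst5 adds sulfate to N-acetylglucosamine of glycans (chromosome 8, 111889136 to 111910447, minus strand). Chst5 stood in MD09 and MD30 at 26 and 40.7 in asynchronous culture, 81.1 and 85.2 at 0 min, 50.2 and 45.7 at 45 min, 62.2 and 64.9 at 90 min, 88.7 and 74.6 at 180 min, and 59.8 and 64.7 at 240 min (CPM). In R42A, Chst5 had in A04 and A10 70.0 and 77.4 in asynchronous culture, 298 and 238 at 0 min, 124 and 117 at 45 min, 158 and 159 at 90 min, 286 and 223 at 180 min, and 199 and 140.2 at 240 min (CPM). The clones did not overlap at any state, and both genotypes were lowest in asynchronous cells. The difference at 90 min was -1.22 ± 0.20 (adjusted p = 1.57e-05). St8sia2 makes polysialic acid on neural cell adhesion molecule and had 9.22, 3.8, 20.6 and 12.6 CPM in the 4 MD libraries, against 44.8, 17.5, 45.1 and 16.8 CPM in the 4 R42A libraries at 90 min (-1.50 ± 0.31, adjusted p = 0.000289). In R42A the replicate 1 libraries (44.8 and 45.1 CPM) were higher than those of replicate 2, and the second pair overlapped with MD. Without replicate 1 the call was lost (-1.29, adjusted p = 0.265).

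Rtbdn encodes retbindin, a riboflavin-binding protein of the retina (chromosome 8, 84946991 to 84956603, plus strand). Rtbdn stood in MD09 and MD30 at 55.5 and 59.7 in asynchronous culture, 53.2 and 53.6 at 0 min, 117 and 105 at 45 min, 59.9 and 74.4 at 90 min, 34.8 and 35.2 at 180 min, and 24.5 and 27.1 at 240 min (CPM). In R42A, Rtbdn had in A04 and A10 91.9 and 99.8 in asynchronous culture, 101 and 98.3 at 0 min, 199 and 188 at 45 min, 105 and 92.9 at 90 min, 61.8 and 71.5 at 180 min, and 47.2 and 42 at 240 min (CPM). Both genotypes were highest at 45 min. At 90 min the difference was small (-0.48 ± 0.16, adjusted p = 0.0147) and no larger than that of chromosome 8 as a whole. Rtbdn had at that time 75.7, 44, 103 and 45.6 CPM in the 4 MD libraries, against 107, 102, 96.2 and 89.6 CPM in the 4 R42A libraries. Without replicate 2 the sign turned (0.10, adjusted p = 0.707), and the call was lost with DESeq2 (-0.35, adjusted p = 0.113). Without clone A04 the difference was -0.31, and without MD30 it was -0.28. The call was also lost in single libraries with and without a replicate block, with no filter, with DESeq2 size factors in edgeR and with the 90 min libraries alone. The same held without the replicate 2 library of MD09 (-0.16, adjusted p = 0.537) or of MD30 (-0.15, adjusted p = 0.512) at 90 min.

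Triml1, a tripartite motif family member known from early mouse embryos, lies on chromosome 8 (43129807 to 43141486, minus strand). Triml1 stood in MD09 and MD30 at 6.79 and 9.18 in asynchronous culture, 8.57 and 7.21 at 0 min, 3.69 and 2.95 at 45 min, 1.7 and 3.15 at 90 min, 4.4 and 3.94 at 180 min, and 5.09 and 5.29 at 240 min (CPM). In R42A, Triml1 had in A04 and A10 18 and 13.8 in asynchronous culture, 24.5 and 32.9 at 0 min, 5.84 and 6.14 at 45 min, 16 and 13.2 at 90 min, 17.6 and 15.2 at 180 min, and 23.5 and 18.7 at 240 min (CPM). The MD clones lay below the R42A clones at every state, with the nearest clones closest in asynchronous cells, and the lowest MD mean was at 90 min, with 1 to 4 counts per library. The difference of Triml1 at 90 min was -2.58 ± 0.36 (adjusted p = 9.65e-07). Its neighbour Triml2, just outside the rule, was lower as well (-1.62 ± 0.27, adjusted p = 1.18e-05).

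**Figure D4:**
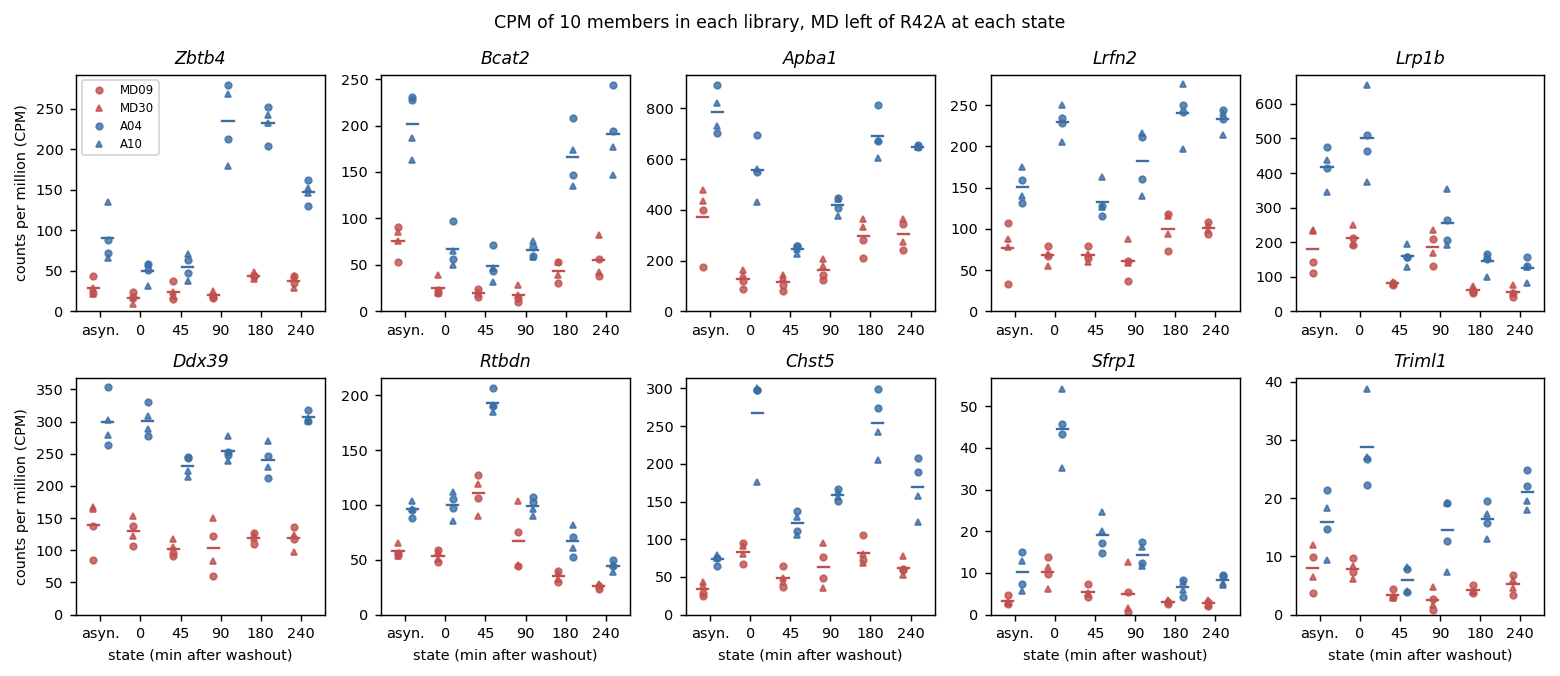
CPM (vertical axis, from 0) of 10 members in each of the 48 libraries at each state (horizontal axis, asynchronous or min after washout), MD (red) left of R42A (blue), with circles and triangles for the 2 clones of each genotype and a line at the mean of 2 clones. Zbtb4 in R42A reaches 179 to 279 CPM at 90 min while MD stays at 15.9 to 25.2 CPM. Libraries of Lrp1b, Rtbdn and Sfrp1 overlap between genotypes at 90 min.

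The other protein-coding members were called at 90 min without exception. Palmd, a palmdelphin gene, had 13.1 ± 3.93 CPM in MD and 63.7 ± 4.31 CPM in R42A (-2.25 ± 0.25, adjusted p = 1.46e-08) and Tmem225, a transmembrane protein gene, 17.1 ± 5.95 CPM in MD and 59.3 ± 3.35 CPM in R42A (-1.78 ± 0.21, adjusted p = 8.12e-08; SD, n = 2 clones). Lrrc29, with leucine-rich repeats, differed by -1.83 ± 0.22 (adjusted p = 1.05e-07), and Lrp2bp, whose product binds the receptor megalin, by -1.002 ± 0.21 (adjusted p = 0.000361). The provisional coding features 2210408I21Rik and Gm16253 differed by -1.38 ± 0.22 (adjusted p = 7.68e-06) and -1.46 ± 0.20 (adjusted p = 5.07e-07). Lrp2bp lost its call without all libraries of replicate 2 (-0.44, adjusted p = 0.146) or without the replicate 2 library of MD09 at 90 min (-0.56, adjusted p = 0.0608). Its opposite-strand partner Ankrd37 was lower in MD by more than it was (-2.77 ± 0.36, adjusted p = 2.80e-07).

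Of the 15 members not annotated as protein-coding, 14 were lower in MD at 90 min, with Gm15239 the exception. Halr1, a long noncoding RNA beside the HoxA cluster, had 10.5, 16.7, 15.9 and 18.9 CPM in the 4 MD libraries, against 40.7, 51.1, 54.5 and 47.9 CPM in the 4 R42A libraries at 90 min, with no overlap (-1.61 ± 0.23, adjusted p = 1.68e-06). Of its 8 neighbours within 100 kb, 5 were lower and none was higher, among them Hoxaas3 (-2.86 ± 0.39, adjusted p = 6.53e-07), Hotairm1 (-1.42 ± 0.31, adjusted p = 0.000448) and Skap2 (-1.05 ± 0.21, adjusted p = 0.000156). Sox1ot overlaps Sox1, a neural transcription factor gene counted at 0 in all libraries, and differed by -2.28 ± 0.42 (adjusted p = 0.000169) from 2 to 8 counts per MD library. 4930471E19Rik had the widest mean ratio over the rule's states, with 6.64 ± 1.68 CPM in MD and 59 ± 12.8 CPM in R42A at 180 min (SD, n = 2 clones) and a 90 min difference of -2.11 ± 0.38 (adjusted p = 8.88e-05). Gm31323, opposite Vps26c, differed by -1.44 ± 0.15 (adjusted p = 8.45e-09), and Vps26c itself was lower by nearly as much (-1.18 ± 0.29, adjusted p = 0.0013). Gm10629 lies against Smpd3 and differed by -1.19 ± 0.41 (adjusted p = 0.0344), while Smpd3 was lower by more (-2.05 ± 0.21, adjusted p = 7.51e-09). Gm31224 lies against Kifc3 and differed by -2.21 ± 0.28 (adjusted p = 2.5e-06), with Kifc3 at -1.72 ± 0.22 (adjusted p = 1.78e-07). In 3 other pairs the opposite-strand gene did not pass the test. Tbx3os1 against Gm16064 had 0.34 ± 0.25 (adjusted p = 0.311), Polr3gl against Gm16253 -0.33 ± 0.17 (adjusted p = 0.115), and 0610005C13Rik against Bcat2 -0.37 ± 0.17 (adjusted p = 0.0824). Gm38143, against St8sia2, was higher in MD (2.55 ± 0.60, adjusted p = 0.00113). E230014E18Rik, Gm31108 and Gm50138 differed by -1.55 ± 0.31 (adjusted p = 0.000168), -1.78 ± 0.40 (adjusted p = 0.00276) and -2.19 ± 0.26 (adjusted p = 6.12e-08). Gm16064, Gm20163 and Gm20611 differed by -1.16 ± 0.21 (adjusted p = 4.58e-05), -1.28 ± 0.20 (adjusted p = 6.51e-06) and -1.25 ± 0.16 (adjusted p = 2.45e-07). Without replicate 2 the calls of Gm16064 (-0.31, adjusted p = 0.371) and Gm20611 (-0.32, adjusted p = 0.178) were lost, and so were those of E230014E18Rik (-0.92, adjusted p = 0.0764) and 4930471E19Rik (-2.41, adjusted p = 0.0541). Gm31108 lost its call without clone MD30 (-1.61, adjusted p = 0.0591). Among the called members of these 15, the smallest differences were those of Gm9902 (-0.82 ± 0.29, adjusted p = 0.0251) and Gm49857 (-0.91 ± 0.26, adjusted p = 0.00584), and Gm10629 had the largest adjusted p. Gm9902 lost its call in 13 alternatives, DESeq2 included (-0.69, adjusted p = 0.136), Gm10629 in 9 and Gm49857 in 5.

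Features near the members were counted in the same way. Of 179 features within 100 kb of a member, 82 were lower at 90 min (45.8%) and 12 were higher, with a median log2 difference of -0.62. On chromosome 8, 39 of 69 were lower (56.5%), against 33.7% of all features tested there. Away from chromosome 8, 43 of 110 were lower (39.1%), against 22.1% of all features, with a median of -0.50 at 90 min and -0.18 in asynchronous cells. Most of these neighbours do not overlap a member. Where they do, counts credited to one may be RNA of the other. No test of these shares was made.

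The second question was how the members moved through mitotic exit within each genotype, with a term for the clone. By CPM the state of the highest mean was the same in MD and R42A for 27 of the 35, and 11 of these peaked at 0 min, 7 in asynchronous cells, 6 at 45 min, 2 at 180 min and 1 at 240 min. The same was not counted over all features, so these counts are a description and show nothing particular to the members. The ratio of a member's highest to its lowest state had a median of 3.01 in MD and 3.64 in R42A. It ran from 1.36 (Ddx39) to 22.3 (Gm9902) in MD and from 1.32 (Ddx39) to 19.5 (Gm9902) in R42A. Time folds below are scaled by TMM. Plain CPM puts the 0 min to asynchronous differences of all features higher by a median of 0.33 log2 units in MD and 0.39 in R42A, and turned the direction of none of the members called in any of the 6 steps tested.

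**Figure D5:**
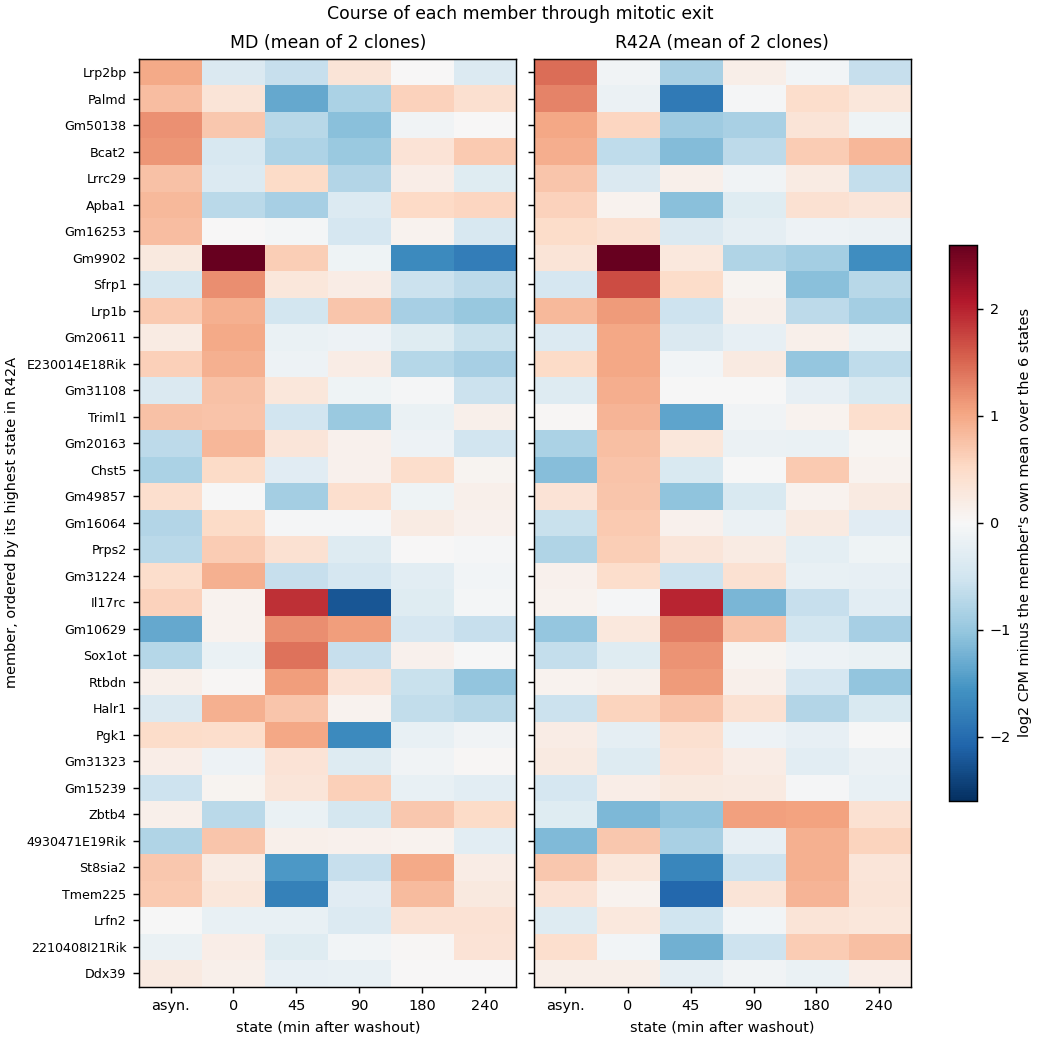
Course of each member (rows, ordered by its highest state in R42A) over the 6 states (columns), MD on the left and R42A on the right, as log2 CPM of the clone mean minus the member's own mean over the states. Gm9902 and Sfrp1 are highest at 0 min and Il17rc at 45 min in both genotypes, while the rise of Zbtb4 at 90 min is seen in R42A.

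At 0 min, against asynchronous cells, 10 of 35 members rose and 16 fell in MD, while 10 rose and 14 fell in R42A (adjusted p under 0.05). The background shares of all features were 18% higher and 24.6% lower in MD, and 19.1% higher and 27.2% lower in R42A, against members' shares of 28.6% and 45.7% in MD and 28.6% and 40% in R42A. Among the features at the rule's level in R42A, 19.9% were higher and 34.5% lower in MD, and 22% higher and 36.3% lower in R42A. These shares were closer to the members' than those of all features. In MD the falls numbered 7 without clone MD30 and 8 without replicate 1, and the rises 6 without clone MD09 and 4 without replicate 2. In R42A the falls numbered 9 without replicate 1. Gm9902 rose most clearly, by 2.02 ± 0.22 (adjusted p = 8.23e-10) in MD and 1.96 ± 0.18 (adjusted p = 2.45e-12) in R42A (log2). Chst5 rose by 0.98 ± 0.20 (adjusted p = 0.000127) in MD and 1.46 ± 0.18 (adjusted p = 8.17e-09) in R42A. Gm20163 was among the clearest in MD (1.19 ± 0.21, adjusted p = 1.41e-05) and Sfrp1 in R42A (1.74 ± 0.22, adjusted p = 1.8e-08). The counts credited to these features were thus higher at 0 min, relative to all features, than in asynchronous cells. Bcat2 fell, with -1.90 ± 0.20 (adjusted p = 1.54e-10) in MD and -1.97 ± 0.17 (adjusted p = 5.87e-13) in R42A, and so did Lrp2bp, with -1.73 ± 0.22 (adjusted p = 2.61e-08) in MD and -1.94 ± 0.18 (adjusted p = 6.77e-12) in R42A. Apba1 in MD (-1.87 ± 0.17, adjusted p = 9.61e-12) and Palmd in R42A (-1.84 ± 0.19, adjusted p = 4.53e-11) completed the clearest falls.

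Over the first 45 min, 15 members fell in MD (42.9%) and 5 rose (14.3%), while 23 fell in R42A (65.7%) and 7 rose (20%). The background was 17.1% lower and 23.1% higher in MD, and 21.6% lower and 25% higher in R42A. Among features at the rule's level, 21.7% were lower and 29.9% higher in MD, and 26.3% lower and 32.7% higher in R42A. The share of members that fell was above the background in both genotypes. Libraries of both genotypes at 0 and 45 min also chose the members, those of R42A by their levels as well. The excess was not tested, and nothing is read from it. The rises in MD numbered 3 without clone MD09 and 3 without replicate 1, and those in R42A 4 without clone A04. Tmem225 fell, with -2.03 ± 0.26 (adjusted p = 2.35e-08) in MD and -2.10 ± 0.21 (adjusted p = 4.41e-11) in R42A, and so did Gm9902, with -1.96 ± 0.21 (adjusted p = 7.54e-10) in MD and -2.35 ± 0.18 (adjusted p = 2.95e-14) in R42A (log2). Gm31224 in MD (-1.47 ± 0.20, adjusted p = 9.06e-08) and St8sia2 in R42A (-1.93 ± 0.20, adjusted p = 1.92e-10) were the others with the smallest p. The 3 clearest increases were the same in both genotypes. Il17rc rose by 1.79 ± 0.22 (adjusted p = 2.44e-08) in MD and 2.07 ± 0.19 (adjusted p = 5.56e-12) in R42A. Rtbdn rose by 1.08 ± 0.16 (adjusted p = 1.02e-06) in MD and 1.01 ± 0.15 (adjusted p = 5.56e-07) in R42A, and Sox1ot by 1.53 ± 0.34 (adjusted p = 0.000547) in MD and 1.56 ± 0.27 (adjusted p = 9.49e-06) in R42A. The MD call of Sox1ot was lost without clone MD09 (0.98, adjusted p = 0.139).

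From 45 to 240 min, 12 members rose (34.3%) and 11 fell (31.4%) in MD, and 14 rose (40%) and 11 fell (31.4%) in R42A, against backgrounds of 24.1% and 24% in MD and 26.8% and 26.1% in R42A. Among the features at the rule's level, 26% were higher and 28.7% lower in MD, and 27.8% higher and 32.3% lower in R42A, so the members' shares of falls were near those. The falls numbered 7 in MD without clone MD09 and 7 without replicate 2, and 7 in R42A without clone A04. Tmem225 and Bcat2, both low at 45 min, rose again. Tmem225 had 2.10 ± 0.23 (adjusted p = 1.92e-10) in MD and 2.41 ± 0.19 (adjusted p = 1.3e-14) in R42A, and Bcat2 had 1.56 ± 0.18 (adjusted p = 8.32e-10) in MD and 2.02 ± 0.16 (adjusted p = 1.46e-14) in R42A. Apba1 in MD (1.55 ± 0.17, adjusted p = 1.48e-10) and 2210408I21Rik in R42A (2.08 ± 0.18, adjusted p = 2.04e-13) completed the 3 clearest rises. The falls with the smallest p were again shared. Rtbdn fell, with -2.02 ± 0.16 (adjusted p = 4.25e-14) in MD and -2.09 ± 0.15 (adjusted p = 1.44e-15) in R42A, Il17rc with -1.82 ± 0.20 (adjusted p = 2.13e-10) in MD and -2.19 ± 0.18 (adjusted p = 2.95e-14) in R42A, and Gm9902 with -2.32 ± 0.31 (adjusted p = 2.23e-08) in MD and -1.83 ± 0.22 (adjusted p = 1.87e-09) in R42A. Whether a time change differs between genotypes was not tested for the members, since it is built from the contrasts that chose them.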

How the data were processed

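EU-labelled nascent RNA of 48 libraries was analysed from whole-number counts per gene symbol, as the authors deposited them, not normalized, with a table for each library. Trim Galore 0.60, STAR 2.7.1a, RSEM 1.3.0 and mm10 stand in the submitters' processing notes without their roles, and RSEM gives estimated counts while these values are whole. Counter entries were removed before scaling. Unassigned reads were 90.2 to 94.0% of each table and ambiguous ones 0.129 to 0.262%. Totals of 630119 to 3885219 assigned counts limit the precision of members with few counts.

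The 2 libraries of each clone and state were summed to 24 values. Features passing filterByExpr (23874) were tested with edgeR 4.0.16 in R 4.3.3, by TMM scaling and the robust quasi-likelihood test with Benjamini-Hochberg adjustment over all features tested. MD and R42A were compared at 90 min in a fit of all 12 group means, so all groups share 1 estimate of spread, and states were compared within a genotype with a clone term. The fitting code was tested on simulated data. Alternatives were DESeq2 1.42.0, limma 3.58.1 (voom), other scaling, no filter, single libraries with and without a replicate block, and leaving out clones, replicates or libraries. A call is an adjusted p under 0.05.

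The members and lists were chosen with earlier results of these data known. Values in every clone and state are given for the 8 members with the highest R42A CPM and the 4 with the largest fold, both among assigned names, and for each time step the 3 called members with the smallest p in each direction are named. Names of 53186 features matched 1 GENCODE M21 gene. Replicate numbers did not pair libraries of the 2 genotypes (r of their deviations -0.0997 to 0.0926). The 2 libraries of a clone and state had a chi-square per degree of freedom of 1.08 to 26.8 in 24 comparisons, where sampling noise gives about 1, and none was treated as a repeat.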

Additional observations from a re-analysis of the deposited data

Results flagged for a closer look

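In each of 420 groups of 4 libraries (35 members, 6 states, 2 genotypes) the library farthest from the others was compared with Dixon's 95% critical value, which chance passes in about 1 group in 20. It was passed in 16. In MD these were E230014E18Rik in MD09 replicate 1 at 0 min (20.8 CPM) and at 240 min (6.85 CPM), Gm16064 in MD30 replicate 1 at 0 min (24.9 CPM), Gm31108 in MD30 replicate 2 at 180 min (40.7 CPM) and MD09 replicate 2 at 45 min (71.9 CPM), Gm31323 in MD09 replicate 2 of asynchronous cells (387 CPM), Il17rc in MD30 replicate 1 of asynchronous cells (33.7 CPM) and Prps2 in MD30 replicate 1 at 45 min (16.8 CPM). In R42A these were Chst5 in A10 replicate 2 at 0 min (175 CPM), Gm16064 in A10 replicate 2 of asynchronous cells (53.0 CPM), Gm31108 in A10 replicate 2 at 180 min (162 CPM), Gm31323 in A10 replicate 1 at 240 min (598 CPM), Gm49857 in A10 replicate 1 at 45 min (19.6 CPM), Palmd in A04 replicate 1 at 180 min (73.4 CPM), Prps2 in A04 replicate 1 at 180 min (19.8 CPM) and Sox1ot in A10 replicate 1 at 45 min (68.5 CPM). No library flagged in this way was from 90 min. Among 105 time changes looked at (35 members, 3 steps), 4 went one way in both MD clones and the opposite way in both R42A clones by mean CPM. From 45 to 240 min, 4930471E19Rik changed by -0.41 in MD09 and -0.40 in MD30, against 1.38 in A04 and 1.48 in A10 (log2), and Gm16253 by -0.29 and -0.43 in MD, against 0.32 and 0.13 in R42A. At 0 min against asynchronous cells, 2210408I21Rik changed by 0.77 in MD09 and 0.015 in MD30, against -0.61 in A04 and -0.42 in A10. At 45 min against 0 min, Halr1 changed by -0.044 and -0.43 in MD, against 0.12 and 0.22 in R42A. These differences were not tested, and no size was required of a change.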

How the results depend on the processing

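The count of members lower in MD at 90 min was 33, and 24 to 33 when a clone, replicate or library was left out. With 48 single libraries and a replicate block it was 31. The replicate numbers do not pair the genotypes. All features lower at 90 min numbered 5267, against 2928 to 5099 in those leave-outs, 3322 with DESeq2 and 4302 with its size factors in edgeR. The median of all features moved from -0.13 to -0.00 with those size factors in edgeR. With TMM scaling it was -0.01 in 48 single libraries and -0.01 in the 90 min libraries alone. Members that fell in MD from asynchronous cells to 0 min numbered 16, against 7 to 16 in leave-outs, 9 in 48 single libraries, 10 with the replicate block and 8 with limma-voom; the cause was not tested. Leave-outs gave 4 to 11 for the rises in MD at 0 min, 3 to 7 for those at 45 min and 7 to 13 for the falls by 240 min. In R42A they gave 9 to 15 falls at 0 min, 4 to 7 rises at 45 min and 7 to 16 falls by 240 min. The rule found 35 members, 5 at 2-fold, 52 with TMM-scaled CPM (all 35 among them), and 23 to 25 from 1 library per clone and state, of which 16 without replicate 2 and 19 without replicate 1 were among the 35. At 90 min, Gm15239 ran from -1.18 to 0.42 when a clone, replicate or library was left out, and Rtbdn from -1.07 to 0.10 (log2; -1.24 and -1.18 without both MD libraries of replicate 1), so neither has a steady sign. No called time change of a named member changed direction. Depth limits Pgk1, Triml1, Il17rc, Sfrp1 and Sox1ot, with at most 8 counts per MD library at 90 min.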

Other observations

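Lists of related genes, none of which holds a member, were counted at 90 min for MD against R42A by the same test. Of 31 SWI/SNF subunit genes, 9 were lower and 5 higher in MD. Of 23 naive pluripotency genes, 4 were lower and 3 higher, and of 10 formative or primed genes none was lower and 3 were higher. Of 22 imprinted genes, 1 was lower and 5 were higher. Of 3 HoxC genes tested, 2 were lower, the single 2-cell gene tested was lower, and none of 6 Y-linked genes was called. These counts compare with 22.1% of all features lower and 15.6% higher.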
